A study of Mus musculus with 71 samples.

Results

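The transcription factors that direct red cell formation were followed in mouse whole blood through 8 genes, namely Klf1, Gata1, Tal1, Nfe2, Zfpm1, Lmo2, Gfi1b and Ldb1. They were picked by gene symbol, and all 8 were found among the 10508 genes of the deposited variance-stabilised table and among the 55416 genes of the deposited count table. The study profiled blood RNA of female Balb/c AnNRj mice in which repeated intradermal injections of hypochlorous acid (HOCl) induce a disease that resembles systemic sclerosis (SSc), with or without monoclonal antibodies against galectin-3 (Gal-3), a sugar-binding protein. Terminal blood was taken into a reagent that stabilises RNA, and strand-specific libraries were sequenced after selection of polyadenylated RNA and depletion of globin transcripts. The 71 mice formed 6 groups. Control mice (n = 11) received saline in place of HOCl, and HOCl mice (n = 12) received HOCl without antibody. The remaining groups, of 12 mice each, received HOCl together with D11, E07, D06 or BPR21. D11 and E07 are antibodies against Gal-3 given under the skin, whereas D06 and BPR21 are known here by their labels alone. The genotype entry of the labels reads HOCL for every group, control mice included, and does not separate them. Groups were housed in separate cages, so cage and group cannot be told apart.

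The comparison of HOCl with control mice asks how the induced disease alters the blood transcriptome, and those of D11, E07, D06 and BPR21 with HOCl mice ask what changes in each of these groups. They were also set against control mice to show what distance remained, and E07 was set directly against D11. Between 11932855 and 15948972 reads were counted per mouse, with a median of 13719277. Group medians lay close together, at 13668782 in control, 14058520.5 in HOCl and 13558719 in D11 mice. HOCl mouse 8 has counts but no variance-stabilised values, so the HOCl group holds 11 mice in every test on those values and 12 in tests on counts.

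As background, Gata1 is a zinc finger protein without which red cell precursors and megakaryocytes, the source of platelets, fail to mature, and Zfpm1 (Friend of GATA) is the cofactor that binds it. Tal1, a basic helix-loop-helix factor, joins Gata1 on DNA through the bridging proteins Lmo2 and Ldb1, and Klf1 switches on adult globin, heme and membrane genes at CACCC sequences. Nfe2 pairs with small Maf proteins and is needed for platelet release, and Gfi1b is a repressor of transcription that acts in both lineages. Mature mammalian red cells have no nucleus, and young ones, the reticulocytes, still carry RNA into the blood.

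Promoter sequences show which of these proteins' own recognition letters lie close to the members' start sites. The RefSeq promoter table (build GRCm38.p6) holds 250 bases before and 50 after each start, and 6 of the 8 members have an entry; Nfe2 and Lmo2 have none. On both strands, the GATA motif (AGATAA, also with T as the first letter) was found in the promoters of Klf1, Tal1, Gfi1b and Ldb1, that is 4 of 6 members, where any entry of a gene may match, against 21% of all genes in the table (18.6% of its 32851 entries). CACCC was found in 6 of 6 members and in 59.8% of all genes (57.5% of entries). The E-box CAGCTG, also with A in the fourth place, was found in 2 of 6 members, Klf1 and Tal1, and in 33.4% of all genes (30.6% of entries), while TGAGTCA (NF-E2) was found in 0 of 6 members and in 5.95% of genes (5.2% of entries). Among the 25 genes with an entry in a list of 34 genes known to be bound by Gata1 or Klf1 in red cell precursors, 15 held the GATA motif. Of the same 25 genes, 21 held CACCC, 5 the E-box and 2 the NF-E2 letters. Among the 29 genes with an entry in a list of partners and opposing factors, 4 held GATA, 23 CACCC, 11 the E-box and 1 the NF-E2 letters. The promoters shown are those of the factors that bind CACCC, GATA and E-box sequences and that of Alas2. Alas2 encodes the enzyme that starts heme synthesis and is the most abundant gene in the list of those bound by Gata1 or Klf1. They lie at chr8:84901732-84902031 (plus strand) for Klf1, chrX:7967861-7968160 (minus strand) for Gata1, chr4:115056176-115056475 (plus strand) for Tal1 and chrX:150547167-150547466 (plus strand) for Alas2. Capitals mark the GATA, CACCC and E-box letters on either strand, and each sequence reads 5′ to 3′ on the gene's strand.
Klf1: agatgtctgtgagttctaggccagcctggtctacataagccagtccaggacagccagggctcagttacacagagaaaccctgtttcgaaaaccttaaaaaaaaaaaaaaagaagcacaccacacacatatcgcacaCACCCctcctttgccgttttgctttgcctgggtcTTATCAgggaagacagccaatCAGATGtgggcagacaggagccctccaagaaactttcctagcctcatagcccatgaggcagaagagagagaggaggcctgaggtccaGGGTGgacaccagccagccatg
Gata1: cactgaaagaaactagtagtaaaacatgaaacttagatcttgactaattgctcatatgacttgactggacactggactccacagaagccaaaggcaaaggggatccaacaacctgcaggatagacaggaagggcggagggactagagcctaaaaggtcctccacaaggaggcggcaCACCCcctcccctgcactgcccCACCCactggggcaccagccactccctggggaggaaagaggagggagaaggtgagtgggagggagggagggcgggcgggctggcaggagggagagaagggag
Tal1: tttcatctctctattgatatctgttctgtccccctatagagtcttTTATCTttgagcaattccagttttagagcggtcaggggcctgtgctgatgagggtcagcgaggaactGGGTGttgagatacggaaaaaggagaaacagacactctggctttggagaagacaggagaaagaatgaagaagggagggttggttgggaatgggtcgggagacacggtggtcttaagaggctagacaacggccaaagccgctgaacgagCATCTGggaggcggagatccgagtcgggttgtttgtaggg
Alas2: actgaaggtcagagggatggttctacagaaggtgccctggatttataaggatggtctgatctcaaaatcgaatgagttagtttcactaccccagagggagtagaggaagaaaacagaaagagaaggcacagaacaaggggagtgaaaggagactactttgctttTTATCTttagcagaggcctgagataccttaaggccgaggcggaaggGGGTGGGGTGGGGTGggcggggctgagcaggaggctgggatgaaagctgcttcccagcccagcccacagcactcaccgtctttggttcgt

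Tal1 has 2 entries in the table, and the other, which is not shown, holds none of these motifs. The GATA letters begin 80 bases before the Klf1 start, 205 before the Tal1 start shown and 86 before that of Alas2. The Klf1 promoter holds CACCC 114 bases before the start, and that of Gata1 holds it 74 and 52 bases before the start. A match is a description of letters and not a site in use. In the files no protein was mapped to DNA.

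On GRCm39, the build to which reads were aligned, Klf1 spans chr8:85628557-85631934 and Zfpm1 chr8:123008805-123065024, both on the plus strand. Gata1 lies at chrX:7825499-7844310 (minus), Tal1 at chr4:114913623-114928952 (plus) and Nfe2 at chr15:103156526-103166830 (minus). Lmo2 lies at chr2:103788331-103812355 (plus), Gfi1b at chr2:28499462-28511994 (minus) and Ldb1 at chr19:46019964-46033981 (minus). Klf1 and Ldb1 overlap expressed genes on the opposite strand, Gcdh (mean 10.06 CPM, counts scaled to library size) and Pprc1 (mean 19.9 CPM). The libraries are strand-specific, but whether the counting used strand is not stated, so reads in the overlap may not have been kept apart for Klf1, which is scarcer than Gcdh, or for Ldb1.

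All 8 members were detected in every mouse. Klf1 was the scarcest, with 18 to 171 counts per mouse, and Lmo2 the most abundant, with 1500 to 5244. Per kilobase of exon sequence, the order was the same in each of the 6 groups: Lmo2, Nfe2, Ldb1, Gata1, Tal1, Gfi1b, Zfpm1 and Klf1. In control mice the median level of Lmo2, the bridging protein, was 82.5 CPM per kilobase, that of Nfe2 was 50.8 and that of Ldb1 32.9. Gata1 followed at 18.7 CPM per kilobase, Tal1 at 10.2 and Gfi1b at 8.94. Zfpm1 stood at 6.52 and Klf1 at 1.51. Not every neighbour in this order was separated beyond the spread between mice. Gfi1b exceeded Zfpm1 in 6 of 12 HOCl mice, Tal1 exceeded Gfi1b in 7 of 12 D11 mice and Ldb1 exceeded Gata1 in 7 of 12 BPR21 mice. With the coding length in place of all exons, Tal1 and Gata1 changed places in all 6 groups, and Ldb1 and Nfe2 in E07 mice.

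**Figure D1:**
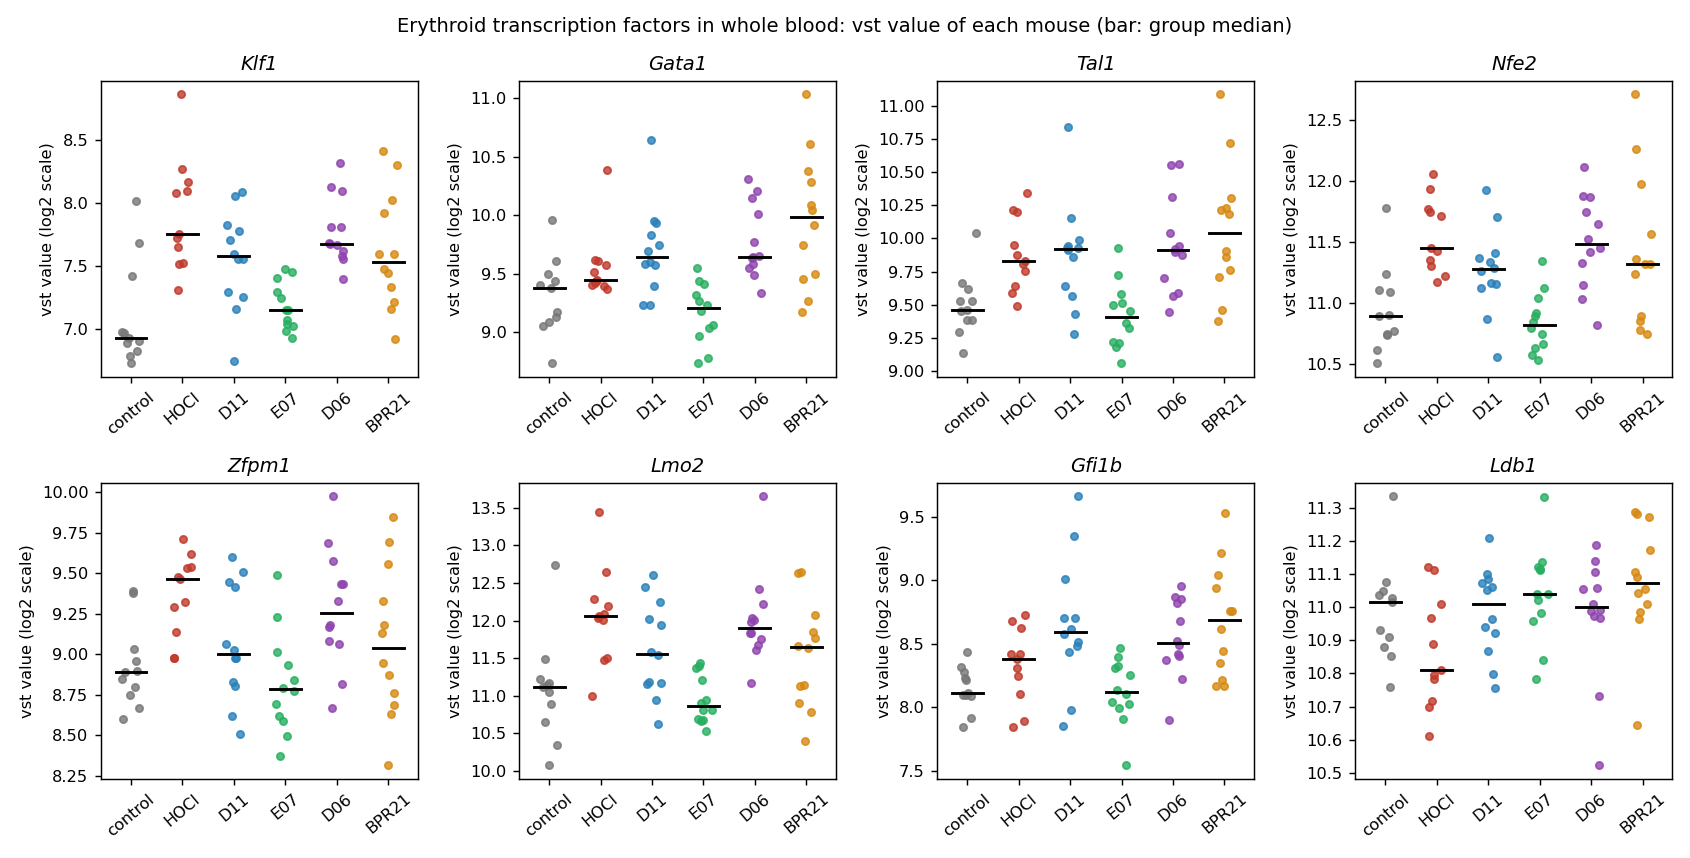
Variance-stabilised (vst) value, on a log2-like scale, of the 8 members in each of the 70 mice of that table (points) with the median of each group (bars). The median of Klf1 is 6.93 in control, 7.75 in HOCl and 7.15 in E07 mice, and the ranges of neighbouring groups overlap for every member.

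Differences between groups are given on the vst scale, on which counts are divided by a size factor for each mouse and 1 unit is close to 1 log2 unit except near its floor, where differences are compressed. A gene was called when limma gave a false discovery rate (FDR, Benjamini-Hochberg over 10508 genes) no higher than 0.05 together with a change in level of 1.3-fold or more. The scale on which libraries are compared bears on every direction below. In HOCl mice the 100 most abundant genes took a median of 54.7% of all counts, compared with 43.0% in control, 52.1% in D11, 43.3% in E07, 55.4% in D06 and 52.0% in BPR21 mice. When counts were scaled to each mouse's total in place of size factors, the median over all genes, in log2 units, moved from -0.02 to -0.47 in HOCl versus control mice and from 0.02 to 0.49 in E07 versus HOCl mice. It moved to -0.57 in D06, -0.36 in D11 and -0.38 in BPR21 versus control mice, and to 0.39 in E07 versus D11 mice. The calls changed sides as well. HOCl versus control mice gave 503 higher and 18 lower genes on the vst scale, and 327 higher and 5132 lower genes with total-count scaling. In E07 versus HOCl mice the split was 92 higher and 737 lower on the vst scale, and 6558 and 324 with total-count scaling. It went from 764 and 64 to 291 and 6748 in D06 versus control mice, and from 31 and 449 to 4512 and 152 in E07 versus D11 mice. In BPR21 versus control mice it went from 16 and 37 to 9 and 668, and in D11 versus control mice from 8 and 0 to 0 and 18. The values scaled to the total are log2(CPM + 1) and not vst values, so the transformation changed together with the scaling, and the share of each in these moves was not separated. Each member's value with total-count scaling is therefore given where its sign differs, to be read against these medians.

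In HOCl compared with control mice (n = 11 each), 5 of the 8 members rose on the vst scale, namely Klf1, Tal1, Nfe2, Zfpm1 and Lmo2, of which Tal1 had a value of -0.04 with total-count scaling. Of all genes tested, 4.96% were called and 4.79% were called higher. The median log2 fold change was 0.41 over the members and -0.02 over all genes, or 0.018 over the members with total-count scaling. On the counts, edgeR's quasi-likelihood test also called 5 members, against 3.71% of the genes it tested. With all 6 groups in the fit limma called 511 of 10508 genes and 3 members, Klf1, Nfe2 and Lmo2. Tal1 (FDR 0.126) and Zfpm1 (FDR 0.0540) were not called by limma in that fit. In blood RNA taken as a whole, fewer cells of a type and less RNA per cell cannot be told apart, here and in every comparison below.

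Klf1, the activator of globin and membrane genes, had vst values of 6.73, 6.93 and 8.02 (lowest, median and highest) in control mice and of 7.31, 7.75 and 8.86 in HOCl mice. All 11 HOCl mice were above the control median, 5 of them above the highest control mouse, and the ranges overlapped. It rose by a log2 value of 0.80 (standard error 0.167, FDR 0.00562 by limma), or 1.64 on the counts (FDR 0.00686 by edgeR), where the compression of low values does not apply.

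Lmo2, which bridges Tal1 and Gata1, ranged from 10.08 to 12.73 (median 11.11) in control mice and from 11.00 to 13.44 (median 12.05) in HOCl mice. In 10 of 11 HOCl mice Lmo2 exceeded the control median, while the control mouse at 12.73 was above 10 of them. Its change of 0.98 (standard error 0.251, FDR 0.0178 by limma) was the largest among the members on this scale. Its partner Tal1 ran from 9.14 to 10.04 (median 9.46) in control and from 9.49 to 10.34 (median 9.83) in HOCl mice. All 11 HOCl mice were above the control median of Tal1, yet 3 were above the highest control mouse. The log2 fold change of Tal1 was 0.38 (standard error 0.107, FDR 0.0325 by limma), which lies at the fold change threshold, and the call was lost in 11 of 22 fits that each left out 1 mouse. It was lost without control mouse 1 (0.36), 2 (0.37), 6 (0.38), 7 (0.38), 8 (0.34), 9 (0.37) or 11 (0.38) and without HOCl mouse 6 (0.35), 7 (0.35), 9 (0.37) or 12 (0.34), and the value ranged from 0.34 to 0.44 over the 22 fits. Ldb1, the protein that holds the complex together, was not called, with medians of 11.02 in control and 10.81 in HOCl mice (log2 fold change -0.12, FDR 0.427 by limma).

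Nfe2, the factor of globin regulation and platelet release, ranged from 10.51 to 11.78 (median 10.90) in control and from 11.17 to 12.06 (median 11.45) in HOCl mice. Every HOCl mouse was above the control median and 2 were above the highest control mouse. Nfe2 rose by 0.61 (standard error 0.131, FDR 0.00638 by limma). Zfpm1, the cofactor of Gata1, ranged from 8.60 to 9.39 (median 8.89) in control and from 8.98 to 9.71 (median 9.46) in HOCl mice. All 11 HOCl mice were above its control median and 6 were above the highest control mouse. Zfpm1 rose by 0.44 (standard error 0.106, FDR 0.0128 by limma).

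Gata1 itself was not called. Its values ran from 8.74 to 9.96 (median 9.38) in control and from 9.37 to 10.39 (median 9.44) in HOCl mice. In 10 of 11 HOCl mice it was above the control median, although only HOCl mouse 6 passed the highest control mouse. Its value was 0.25 (standard error 0.125, FDR 0.302 by limma) and -0.18 with total-count scaling. The repressor Gfi1b was not called either, with a log2 fold change of 0.19 (FDR 0.356 by limma), or -0.19 with total-count scaling. Under that scaling 3 members were called, against 52.0% of all genes. Klf1 was higher by 1.12 (FDR 0.00336) and Lmo2 by 0.55 (FDR 0.0158), whereas Ldb1 was lower, at -0.61 (FDR 0.0140), all by limma. Klf1 and Lmo2 were thus higher in HOCl mice under both scalings.

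**Figure D2:**
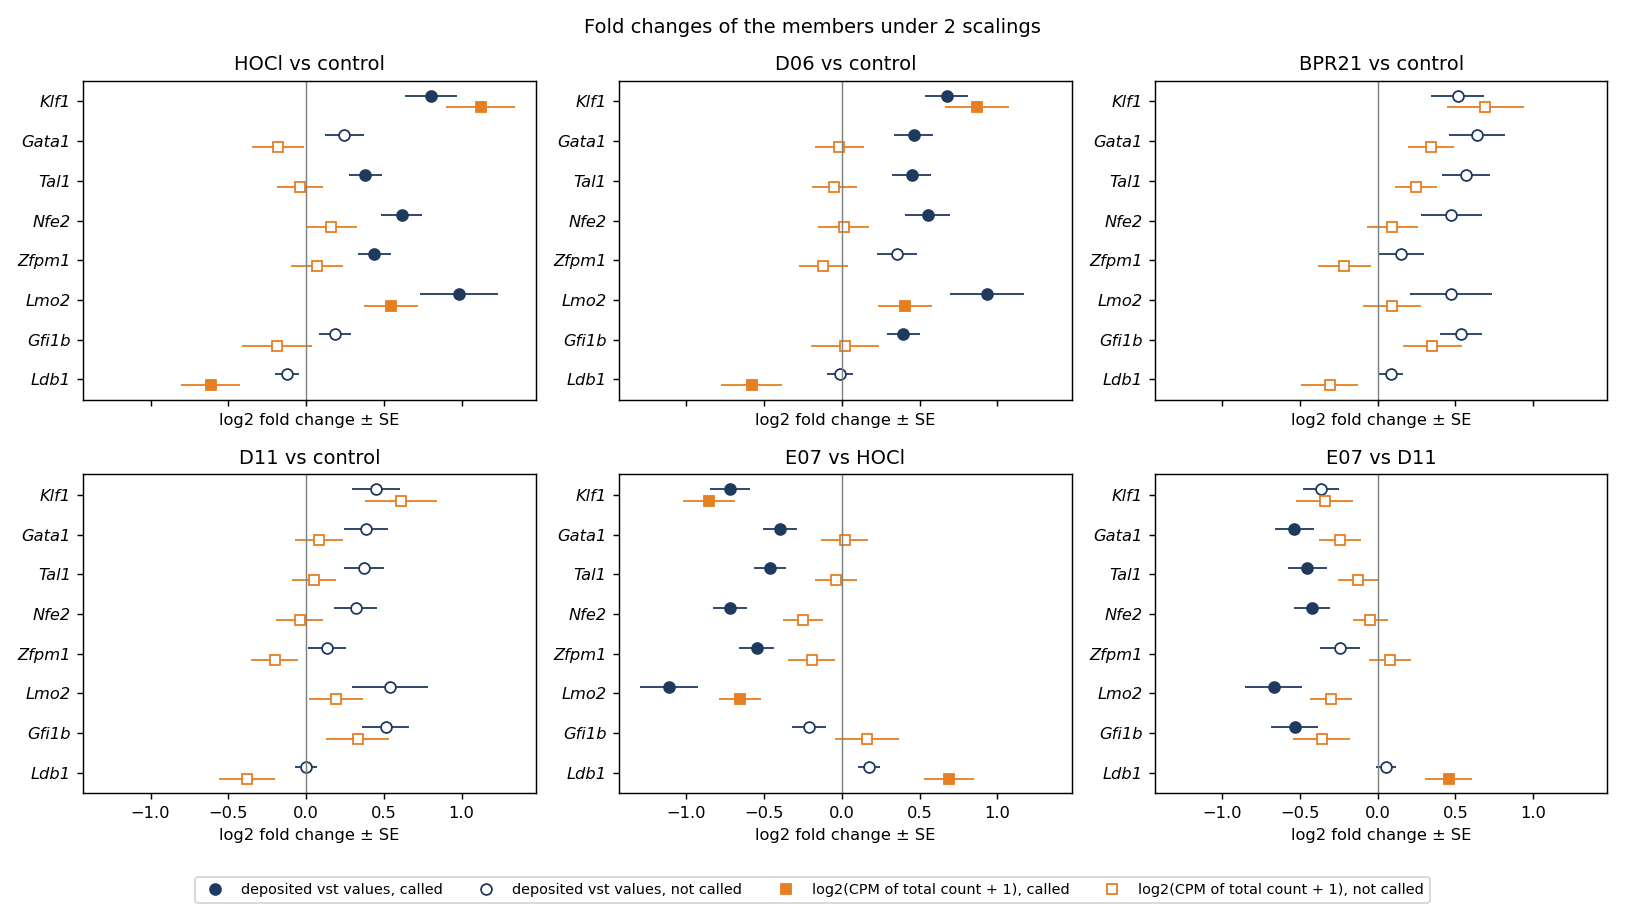
Log2 fold change (points) and standard error (bars) of each member in 6 comparisons, by limma on the vst values (circles) and on log2(CPM + 1) of the total count (squares), filled where called. Klf1 is at 0.80 and 1.12 and Lmo2 at 0.98 and 0.55 in HOCl versus control mice, while Gata1, Tal1 and Gfi1b lie on opposite sides of 0 under the 2 scalings.

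Genes of the red cell programme were followed in the same mice. Of the list of Gata1 and Klf1 targets, 31 of 34 genes were in the vst table, and 22 rose while 9 were not called. The median log2 fold change of the list was 1.18, or 0.78 with total-count scaling, beside 0.41 over the members on the vst scale, a difference that was not tested. Slc4a1, the anion exchanger of the red cell membrane, rose by 1.80 (standard error 0.332, FDR 0.00356 by limma). Epb42 and Sptb, both of the membrane skeleton, rose by 1.70 and 1.63. The smallest values belonged to Epor, the erythropoietin receptor, at 0.02 (FDR 0.960), Cpox at 0.24, Icam4 at 0.34 and Ppox at 0.39, none of them called by limma. Alas2 alone took 76.8% of the summed level of the list, and rose by 1.18 (FDR 0.0100 by limma). The globin genes Hba-a1 (0.51, FDR 0.531) and Hbb-bs (0.46, FDR 0.596) were not called, in libraries depleted of globin transcripts. The list took a median of 6.33% of all counts in control mice and 10.5% in HOCl mice.

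Other regulators of blood cell formation were called at a share near the 4.96% of all genes in this comparison. In a list of 32 partners and opposing factors, 31 were in the vst table, with a median log2 fold change of 0.03. Those that rose were E2f2, a cell cycle factor of late red cell precursors, by 1.28 (FDR 0.00638 by limma), and Ssbp3, a partner that stabilises Ldb1, by 0.51 (FDR 0.00744). Foxo3 (0.28, FDR 0.235) and Cbfa2t3 (0.27, FDR 0.132), a corepressor that joins the Tal1 complex, had the next largest values. The lowest values were those of Fli1, a megakaryocyte factor, at -0.16 (FDR 0.410), Tcf3, which pairs with Tal1, at -0.13, Ikzf1 at -0.09 and Stat5b at -0.05, none of them called. E2f2 was also the most abundant gene of the list, with a mean of 430 CPM. With total-count scaling, E2f2 was higher by 0.83 and Ssbp3 by 0.12, while the list's median was -0.37 beside -0.47 for all genes.

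Markers of other blood cells were measured beside the members, since several of the factors also act in platelets, mast cells or eosinophils. Of 15 platelet markers, 14 were in the vst table and 7 rose in HOCl mice, with a median change of 0.46, or 0.03 with total-count scaling. Pf4, platelet factor, was the most abundant and rose by 0.61 (FDR 0.00786 by limma), and the summed level of the list had a median of 4146 CPM in control and 4909 CPM in HOCl mice. Of 11 neutrophil markers, the granule genes Ngp, Camp and Ltf rose, while the most abundant was S100a9 and the summed level had a median of 5692 CPM in control and 4740 CPM in HOCl mice. Eosinophil, basophil and mast cell, monocyte, B cell, T cell and NK cell markers gave 0 calls by limma or edgeR, with an unadjusted p under 0.05 by limma for 0 of 6, 2 of 6, 1 of 8, 1 of 8, 1 of 8 and 4 of 7 genes in that order. Their medians were 0.09, 0.14, -0.02, -0.19, -0.11 and -0.20, or -0.17, 0.06, -0.42, -0.68, -0.60 and -0.71 with total-count scaling, and their most abundant genes were Ccr3, Hdc, Ccr2, Cd79a, Tcf7 and Gzma. Of 6 progenitor markers 0 were in the vst table, and Kit, Mecom and Hoxa9 had 0 counts in 24, 47 and 62 of 71 mice. Cd34 had 0 counts in 10 mice and Flt3 in 5, while Meis1 was counted in every mouse (4 to 85 counts). The part of these cells in the members' values was not tested.

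Between E07 and HOCl mice (n = 12 and 11), 6 of 8 members fell on the vst scale, namely Klf1, Gata1, Tal1, Nfe2, Zfpm1 and Lmo2, of which Gata1 had a value of 0.017 with total-count scaling. Of all genes 7.89% were called and 7.01% were called lower. The median log2 fold change was -0.50 over the members and 0.02 over all genes, or -0.12 over the members with total-count scaling. With edgeR on the counts 6 members were called, against 8.13% of its genes. The HOCl mice of this comparison are those already compared with control mice, so the values of both are not independent.

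Klf1 ranged from 6.93 to 7.48 (median 7.15) in E07 mice. All 12 were below the HOCl median and 9 were below the lowest HOCl mouse. Klf1 fell by 0.72 (standard error 0.130, FDR 0.000411 by limma), and by 1.58 on the counts (FDR 0.000115 by edgeR). Lmo2 ranged from 10.54 to 11.43 (median 10.86), with all 12 mice below the HOCl median and 8 below the lowest HOCl mouse. It fell by 1.11 (standard error 0.187, FDR 0.000245 by limma). Nfe2 showed the clearest separation on the vst scale, with values from 10.54 to 11.34 (median 10.82) and 11 of 12 E07 mice below the lowest HOCl mouse. It fell by 0.72 (standard error 0.107, FDR 0.000115 by limma), or by 0.25 with total-count scaling, where it was not called.

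Tal1 ranged from 9.06 to 9.93 (median 9.41) and Zfpm1 from 8.37 to 9.49 (median 8.78) in E07 mice. For each of them 11 of 12 E07 mice were below the HOCl median. Tal1 fell by 0.46 (FDR 0.00341 by limma) and Zfpm1 by 0.55 (FDR 0.00143). Gata1 ranged from 8.73 to 9.55 (median 9.21), with 9 of 12 E07 mice below the lowest HOCl mouse. It fell by 0.40 (standard error 0.109, FDR 0.0134 by limma), close to the fold change threshold. Its call was lost without HOCl mouse 6 (-0.31), E07 mouse 4 (-0.36) or E07 mouse 10 (-0.36). It was also lost with all 6 groups in the fit (FDR 0.0820 by limma), where 5 members and 681 of 10508 genes were called. Gfi1b had a log2 fold change of -0.21 (FDR 0.210 by limma), or 0.16 with total-count scaling, and Ldb1 of 0.18 (FDR 0.104), neither of them called. With total-count scaling 3 members were called, against 65.5% of all genes. Klf1 was lower, at -0.85 (FDR 0.000397), as was Lmo2, at -0.65 (FDR 0.000550), and Ldb1 was higher, at 0.69 (FDR 0.00120), all by limma.

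The targets list fell in the same mice, with 22 of 31 genes lower and 9 not called, a median of -1.12, or -0.74 with total-count scaling. Sptb fell by 1.99 (standard error 0.288, FDR 0.000115 by limma) and Alas2 by 1.25 (FDR 0.000250). Epor, the receptor that passes the erythropoietin signal, had a value of -0.32 (FDR 0.0520) and was not called. E2f2 fell by 1.38 (FDR 0.000291) and Ssbp3 by 0.62 (FDR 0.000813), and the other 29 regulators were not called, beside 7.89% of all genes called.

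Platelet markers fell as well on the vst scale, in 11 of 14 genes with a median of -0.52, but with total-count scaling the median was -0.04 and Pf4, Itgb3 and Tubb1 had values of 0.028, 0.0071 and 0.0037. Vwf, the adhesive protein of platelets and vessel walls, fell by 0.83 (FDR 0.000834 by limma). B cell markers moved the other way, with 6 of 8 genes higher, a median of 0.53 and a summed level with a median of 2110 CPM in E07 and 1075 CPM in HOCl mice. Among the remaining lists the eosinophil markers Ccr3 and Il5ra rose, and Hdc, Csf1r, Mmp8 and Ltf, of basophils, monocytes and neutrophils, fell. T cell and NK cell markers gave 0 calls by limma and by edgeR, with an unadjusted p under 0.05 by limma for 2 of 8 and 1 of 7 genes. The part of these cell types in the result was not tested.

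D11 compared with HOCl mice (n = 12 and 11) gave a different picture, with 0 of 8 members called by limma, beside 0.0571% of all genes, and 0 by edgeR or DESeq2. An unadjusted p under 0.05 by limma was found for 3 members. These were Klf1 (-0.35, FDR 0.320), Nfe2 (-0.30, FDR 0.312) and Zfpm1 (-0.30, FDR 0.275), 3 of the genes that rose in HOCl mice. Gfi1b had the largest positive value, 0.33 (FDR 0.364), with D11 mice running from 7.85 to 9.67 (median 8.60) and HOCl mice from 7.85 to 8.73 (median 8.38). Tal1 stood near 0, at -0.0090 on the vst scale and 0.090 with total-count scaling. The targets list had a median of -0.40, with 0 of 31 genes called by limma or edgeR and 11 at an unadjusted p under 0.05 by limma. The eosinophil marker Ccr3 rose by 0.90 (FDR 0.0423 by limma).

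E07 compared directly with D11 mice (n = 12 each) had 5 of 8 members lower, namely Gata1, Tal1, Nfe2, Lmo2 and Gfi1b. Of all genes 4.57% were called and 4.27% were called lower. The median was -0.44 over the members and 0.02 over all genes, or -0.19 over the members with total-count scaling. On the counts, edgeR called 6 members, Klf1 among them, against 5.02% of its genes.

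Gata1 ranged from 9.23 to 10.64 (median 9.65) in D11 mice, and all 12 E07 mice were below that median, 7 of them below the lowest D11 mouse. It fell by 0.54 (standard error 0.124, FDR 0.0224 by limma). Gfi1b was also below the D11 median in 12 of 12 E07 mice, whose values ran from 7.54 to 8.46 (median 8.12). It fell by 0.53 (standard error 0.150, FDR 0.0331 by limma). Gfi1b was thus called here and not between HOCl and control mice. Lmo2 ran from 10.62 to 12.61 (median 11.56) in D11 mice, and all 12 E07 mice were below that median. Lmo2 fell by 0.67 (FDR 0.0306 by limma), Tal1 by 0.45 (FDR 0.0318) and Nfe2 by 0.42 (FDR 0.0306). Klf1 (-0.37, FDR 0.0571 by limma) and Zfpm1 (-0.24, FDR 0.279, and 0.08 with total-count scaling) were not called.

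These calls depended on the samples in the fit and on the scaling. In a fit over all 6 groups, limma called 0 genes in E07 versus D11 mice, 0 members included, although 5 members are called when the fit holds the compared groups alone. With total-count scaling, 1 member was called, Ldb1, which was higher by 0.46 (FDR 0.0192 by limma), against 44.4% of all genes. Targets were lower in 7 of 31 genes, with a median of -0.74, among them Epb42, which fell by 1.06 (FDR 0.0275 by limma). Platelet markers were lower in 5 of 14 genes, with Ppbp falling by 0.65 (FDR 0.0211 by limma) and Pf4 by 0.59 (FDR 0.0232). With total-count scaling Ppbp had a value of -0.26 and Pf4 of -0.20, while Itgb3, Selp and Thbs1 were positive. B cell markers lay the other way, with a positive value for all 8, of which Cd79b rose by 0.42 (FDR 0.0429 by limma) and Tnfrsf13c by 0.38 (FDR 0.0430). The part of these cells in the members' values was not tested.

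Set against control mice, the members of the E07 group lay close to them. By limma 0 of 8 members were called, beside 0.00952% of all genes, 0 had an unadjusted p under 0.05, and edgeR and DESeq2 called 0. The members' log2 fold changes ran from -0.15 for Gata1 (FDR 0.849) to 0.08 for Klf1 (FDR 0.949), with a median of -0.09. Even so, 11 of 12 E07 mice had more Klf1 than the median control mouse, with medians of 7.15 and 6.93. Targets had a median of -0.04, with 0 of 31 called by limma or edgeR and 1 at an unadjusted p under 0.05 by limma. An unadjusted p under 0.05 by limma was found for 6 of 6 eosinophil, 6 of 8 B cell and 5 of 8 monocyte markers, with medians of 0.38, 0.32 and -0.32 and 0 called by limma or edgeR, and their part in the members' values was not tested. A test that misses the threshold does not show that the groups are alike.

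D11 versus control mice lay farther apart without passing the test. Here 0 of 8 members were called by limma, beside 0.0761% of all genes, and 0 by edgeR. DESeq2 called 1, Gfi1b, at 0.86, against 157 of its 15211 genes. The 6 members with an unadjusted p under 0.05 were Klf1, Gata1, Tal1, Nfe2, Lmo2 and Gfi1b, and the median over the members was 0.38, or 0.068 with total-count scaling. Gfi1b was above the highest control mouse in 10 of 12 D11 mice, and its value was 0.51 (standard error 0.149, FDR 0.117 by limma). Lmo2 had a value of 0.54 (FDR 0.264) and Klf1 of 0.45 (FDR 0.147). Signs differed with total-count scaling for Nfe2 (0.32 and -0.04) and Zfpm1 (0.14 and -0.20). The targets list had a median of 0.70, with 0 of 31 genes called by limma or edgeR and 21 at an unadjusted p under 0.05 by limma. Among the 8 genes called were the eosinophil markers Ccr3, which rose by 0.95 (FDR 0.0102 by limma), and Alox15, by 0.79 (FDR 0.0166). Every platelet marker had a positive value, with Ppbp at 0.67 (unadjusted p 0.00013 by limma) and Pf4 at 0.73 (unadjusted p 0.00022). With total-count scaling Itgb3, Gp1ba, Gp5, Selp, Tubb1 and Thbs1 were negative. All monocyte markers except Cd300e were negative, with Ccr2 at -0.49 (unadjusted p 0.0014 by limma). No platelet or monocyte marker was called by limma. The part of these cells in the members' values was not tested.

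D06 mice were set against the HOCl and the control group in turn. Compared with HOCl mice (n = 12 and 11), 0 of 8 members were called by limma, beside 0.133% of all genes, 0 had an unadjusted p under 0.05, and edgeR and DESeq2 called 0. The log2 fold changes ran from -0.13 for Klf1 to 0.21 for Gata1. Gata1 was above the HOCl median in 11 of 12 D06 mice and Gfi1b in 9 of 12, whereas Zfpm1 and Lmo2 were below it in 9 of 12. A lack of calls does not show that the groups are alike. Among cell markers Ccr3 rose by 1.17 (FDR 0.0390 by limma) and Cx3cr1 fell by 0.83 (FDR 0.0215). Compared with control mice (n = 12 and 11), 6 of 8 members rose on the vst scale, while Gata1 and Tal1 among them had values of -0.017 and -0.048 with total-count scaling. Nfe2 (0.011) and Gfi1b (0.019) were also near 0 under that scaling. Of all genes 7.88% were called and 7.27% were called higher, and edgeR called 6 members against 7.30% of its genes. The median was 0.46 over the members and -0.03 over all genes, or -0.0030 over the members with total-count scaling.

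Klf1 ran from 7.40 to 8.32 (median 7.68) in D06 mice, all 12 of which were above the control median. It rose by 0.67 (standard error 0.137, FDR 0.00215 by limma). Lmo2 ran from 11.16 to 13.65 (median 11.90), with 12 of 12 above the control median, and rose by 0.93 (standard error 0.238, FDR 0.00998). Nfe2 rose by 0.55 (FDR 0.0112), Gata1 by 0.46 (FDR 0.0177), Tal1 by 0.45 (FDR 0.0179) and Gfi1b by 0.40 (FDR 0.0147). Gfi1b, the repressor, was above the highest control mouse in 7 of 12 D06 mice. But with all 6 groups in the fit it was not called (FDR 0.0545 by limma), while 5 members and 862 of 10508 genes were. Zfpm1 was not called (0.36, FDR 0.0755, and -0.12 with total-count scaling), nor was Ldb1 (-0.01). With total-count scaling 3 members were called, against 67.0% of all genes, with Klf1 at 0.87 (FDR 0.00202), Lmo2 at 0.41 (FDR 0.0388) and Ldb1 at -0.58 (FDR 0.0125). Of the targets 24 of 31 rose, with a median of 1.09, and 8 of 14 platelet markers rose, with a median of 0.52, but with total-count scaling the median was -0.0046, 7 of the 14 were positive, 1 was called and Itga2b had a value of -0.06. Eosinophil markers rose in 4 of 6 genes, Ccr3 by 1.23. The neutrophil genes Ngp (1.46), Camp (1.32) and Retnlg (0.85) and the basophil gene Mcpt8 (0.75) rose as well, and the monocyte gene Cx3cr1 fell by 0.84 (FDR 0.00124 by limma), all with the same sign under total-count scaling. The part of these cells in the members' values was not tested.

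On the vst scale BPR21 mice had the largest standard deviation among the 6 groups for 6 of the 8 members, all except Gfi1b and Ldb1. In CPM the largest for Zfpm1 and Lmo2 was that of HOCl mice (8.65 and 67.6, beside 7.35 and 60.5 in BPR21 mice). The vst values of BPR21 mice follow. Gata1 ran from 9.17 to 11.03 (median 9.98), Tal1 from 9.38 to 11.08 (median 10.04) and Nfe2 from 10.75 to 12.71 (median 11.32). For these 3 genes BPR21 mouse 12 was the highest of the group and BPR21 mouse 1 the lowest on the vst scale. In CPM the lowest and highest BPR21 mice were 4 and 11 for Gata1, 4 and 10 for Tal1, and 8 and 7 for Nfe2. Compared with HOCl mice (n = 12 and 11), 0 of 8 members were called by limma, beside 0.638% of all genes, with 3 at an unadjusted p under 0.05 and 0 by edgeR or DESeq2. Those 3 were Gata1 (0.39, FDR 0.309), Gfi1b (0.35, FDR 0.283) and Ldb1 (0.21, FDR 0.232). The monocyte markers Csf1r, Ly6c2, Cx3cr1 and Nr4a1 fell, Cx3cr1 by 0.87 (FDR 0.00808 by limma), and the T cell marker Lat rose by 0.39 (FDR 0.0266).

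Compared with control mice (n = 12 and 11), 0 of 8 members were called by limma, beside 0.504% of all genes, with 5 at an unadjusted p under 0.05. On the counts, edgeR called 3 members, against 1.48% of its genes, and DESeq2 called 3, against 570 of its 15211 genes. By edgeR these were Gata1 (0.80, FDR 0.0402), Tal1 (0.69, FDR 0.0362) and Gfi1b (0.82, FDR 0.0233). On the vst scale Gata1 had a value of 0.64 (FDR 0.0723 by limma), Tal1 of 0.57 (FDR 0.0703) and Gfi1b of 0.54 (FDR 0.0628). Each lay above the control median in at least 10 of 12 BPR21 mice. With all 6 groups in the fit, limma called 4 members, these 3 and Klf1, against 406 of 10508 genes. Klf1, with 0.51 (FDR 0.110), and Lmo2, with 0.47 (FDR 0.329), had smaller values than in HOCl or D06 mice, and whether the groups differ in this was tested for HOCl mice only, in the comparison above. Markers of other cells moved in the same comparison. Of 8 monocyte markers, Ly6c2, Ccr2, Cx3cr1 and Nr4a1 fell, Ccr2 by 1.08 (FDR 0.0149 by limma), and of 7 NK cell markers, Ncr1 and Gzma fell, while Pf4 alone rose among 14 platelet markers, by 0.81 (FDR 0.0336). These kept their sign with total-count scaling, and their part in the members' values was not tested.

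Across the groups, then, the members differed in where they stood highest on the vst scale. Median vst values of Klf1, Zfpm1 and Lmo2 were highest in HOCl mice, those of Gata1, Tal1, Gfi1b and Ldb1 in BPR21 mice, and that of Nfe2 in D06 mice. Klf1 and Gfi1b had their lowest medians in control mice, Gata1, Tal1, Nfe2, Zfpm1 and Lmo2 in E07 mice, and Ldb1 in HOCl mice. Part of this order differed between the scales, and the HOCl group holds 12 mice in CPM and 11 on the vst scale. In CPM of the total count, the highest median of Ldb1 was in E07 mice (185.8), that of Gfi1b in D11 mice (19.97) and that of Nfe2 in HOCl mice (188.3). The lowest CPM median of Gata1 was in HOCl mice (38.7), that of Gfi1b in E07 mice (14.29) and that of Zfpm1 in D06 mice (28.2). On the vst scale the ranges of neighbouring groups overlapped for each of the 8 genes. For Gata1 the D11 and D06 medians (9.65 and 9.64) were the closest neighbours, and for Klf1 the D11 and BPR21 medians (7.58 and 7.53).

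The members also varied among mice of the same group. After subtraction of group means, Pearson's r over the 70 mice was positive for 22 of the 28 pairs of members, with a median of 0.43 and a range from -0.38 to 0.85. In 12 pairs it was positive in every group. All points share the same libraries and size factors, and with total-count scaling the median was 0.12 and 13 pairs changed sign. Gata1 and Tal1 had the highest r, 0.847 (rho 0.795, and 0.797 without the 2 mice farthest from the median), followed by Tal1 and Nfe2 at 0.822 (rho 0.797, and 0.781). With total-count scaling these were 0.738 and 0.691. Klf1 and Lmo2 had an r of 0.815 (rho 0.766, and 0.770), or 0.582 with total-count scaling. Within groups, then, Gata1, Tal1 and Nfe2 varied together and so did Klf1 and Lmo2, whereas Klf1 with Tal1 had an r of 0.422 that became -0.26 with total-count scaling. The lowest r was that of Lmo2 and Ldb1, -0.38, or -0.66 with total-count scaling.

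**Figure D3:**
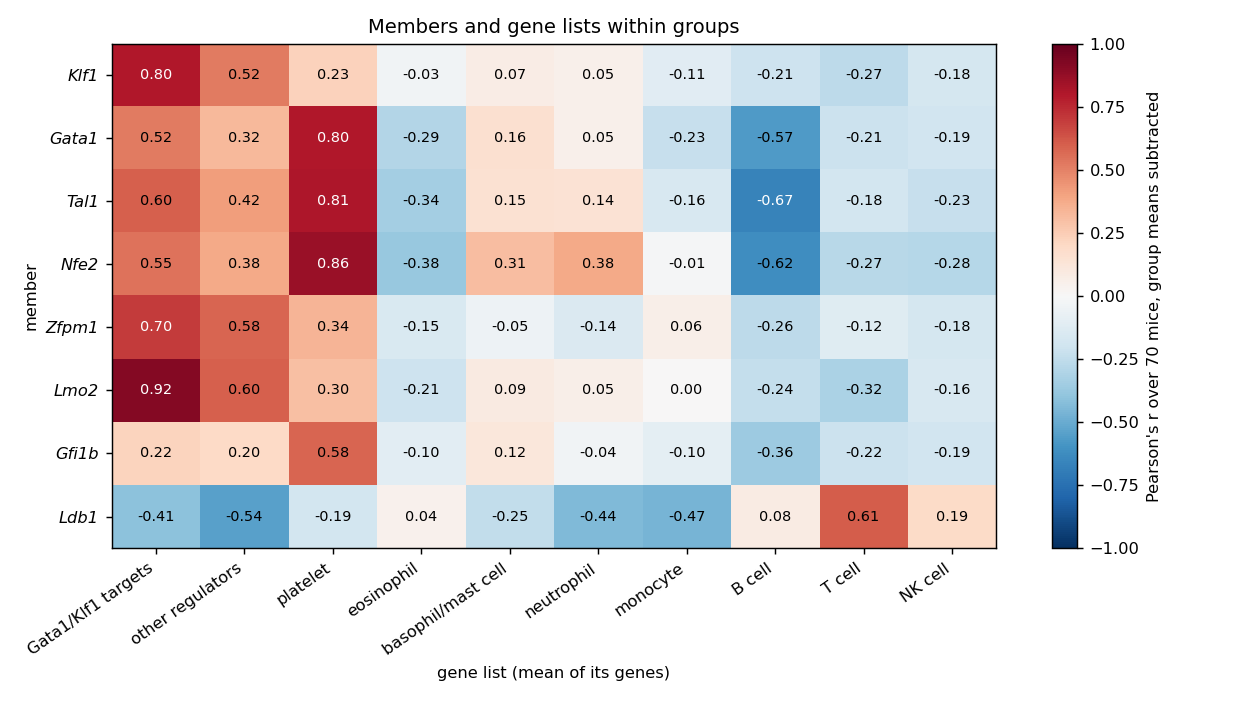
Pearson's r over 70 mice, after subtraction of group means, between the vst value of each member (vertical axis) and the mean vst value of each gene list (horizontal axis). Lmo2 and Klf1 are highest with the targets (0.92 and 0.80), Nfe2, Tal1 and Gata1 with the platelet markers (0.86, 0.81 and 0.80) and Ldb1 with the T cell markers (0.61).

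The map of members against gene lists separates the same genes. With the mean of the targets, Lmo2 had an r of 0.916 (rho 0.904, and 0.902 without the 2 farthest mice), between 0.844 and 0.963 within the groups, or 0.756 with total-count scaling. Klf1 had an r of 0.799 (rho 0.771, and 0.780), or 0.554 with total-count scaling. Zfpm1 followed at 0.700, but at 0.115 with total-count scaling. Gata1, the factor after which the list is named together with Klf1, had an r of 0.523, and -0.25 with total-count scaling, and Tal1 (0.598 and -0.23) and Nfe2 (0.546 and -0.25) also changed sign. Gfi1b had an r of 0.225, positive in 3 of 6 groups, and -0.34 with total-count scaling.

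With the platelet markers the order was different. Nfe2 had an r of 0.864 (rho 0.804, and 0.834 without the 2 farthest mice), Tal1 of 0.807 (rho 0.778, and 0.746) and Gata1 of 0.801 (rho 0.735, and 0.740), each positive in all 6 groups. Within the groups r ran from 0.191 to 0.966 for Nfe2, from 0.245 to 0.969 for Tal1 and from 0.566 to 0.912 for Gata1. With total-count scaling the r over all mice was 0.814, 0.732 and 0.718 for these genes, so they kept their sign. Gfi1b had an r of 0.583, or 0.572 with total-count scaling, and was positive in 4 of 6 groups. Lmo2 and Klf1 had an r of 0.303 and 0.231, which became -0.56 and -0.32 with total-count scaling. Mice of a group with more platelet RNA therefore tended to have more Nfe2, Tal1 and Gata1 RNA, to an extent that differed between groups. Mice with more RNA of the targets tended to have more Lmo2 and Klf1 RNA. The source of either was not tested. With the B cell markers Tal1 (-0.67), Nfe2 (-0.62) and Gata1 (-0.57) were negative, but closer to 0 with total-count scaling (-0.20, -0.15 and -0.12). Ldb1 went with the T cell markers, at 0.609 (rho 0.478, and 0.594 without the 2 farthest mice), positive in all 6 groups, or 0.935 with total-count scaling. Under that scaling Ldb1 was positive with every list of the map except the targets (-0.76). It was at 0.86 with the regulators, 0.77 with the NK cell and 0.71 with the B cell markers. On the vst scale these were -0.54, 0.19 and 0.08.

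**Figure D4:**
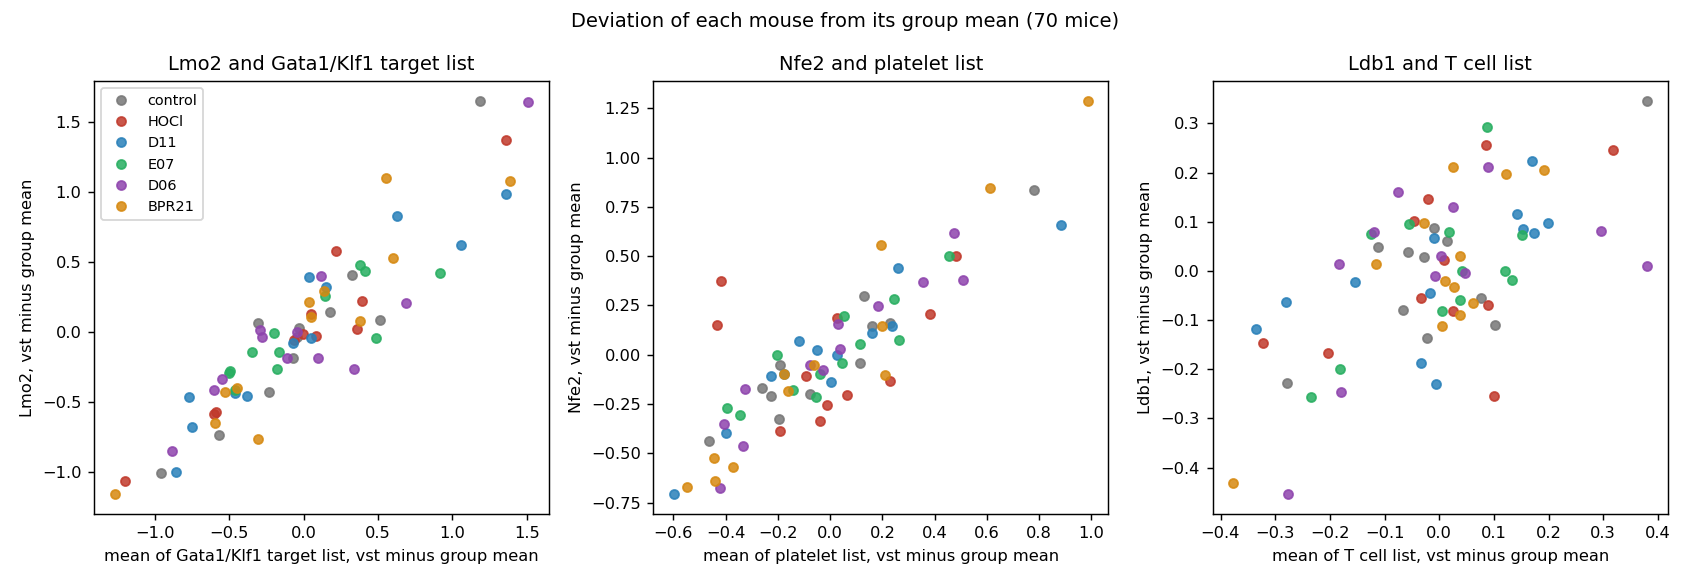
Deviation of each of the 70 mice from its group mean (vst units, points by group) for Lmo2 against the targets, Nfe2 against the platelet markers and Ldb1 against the T cell markers. Pearson's r is 0.916, 0.864 and 0.609, and the points of the 6 groups lie along the same course in the first panel.

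Individual mice show the size of this variation in the plot of deviations. Mice of every group spread along a common course for Lmo2 and the targets, whereas HOCl mice 5 and 7 lie off the course of Nfe2 and the platelet markers, with fewer platelet transcripts than others at their level of Nfe2. The part of cell composition in either was not tested.

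Among all 10507 other genes, those most like each member over the 70 mice were named by the same r on the vst scale, and with total-count scaling most of the names change. For Lmo2 they were Iscu (0.967), which assembles iron-sulfur clusters, Srp14 (0.964) and Pttg1 (0.963). For Klf1 they were Nxpe2 (0.840), Bsg (0.836), which encodes basigin, a surface protein of red cells among others, and Hagh (0.834). Zfpm1 was closest to Pabpc1 (0.817), Sptb (0.789), the erythroid spectrin, and Ptpa (0.778). Gata1 and Tal1 shared a neighbour, Zwint (0.851 and 0.875), and Gata1 was next closest to Tal1 itself (0.847) and to Mfsd2b (0.839), a lipid transporter of red cells and platelets. Tal1 was closest to Stom (0.895), the red cell membrane protein stomatin, and to Map2k3 (0.888). Nfe2 was closest to Abtb1 (0.885), Ctsd (0.879) and Atox1 (0.875). The neighbours of Gfi1b were Rasgrp2 (0.710) and Fermt3 (0.695), both of which act in integrin activation of platelets, and Tagln2 (0.691), and each had a negative r in at least 1 group on the vst scale. These 3 were also the nearest to Gfi1b with total-count scaling, with a positive r in every group. On the vst scale Ldb1 had the weakest neighbours, Tecpr1 (0.633), Als2cl (0.623) and Clcf1 (0.591), but with total-count scaling it had the strongest, among them Ddx39b (0.932), while those of Zfpm1 were the weakest, with Ogdh (0.545) the nearest. Iscu remained nearest to Lmo2 (0.888) and Nxpe2 to Klf1 (0.667), whereas Gata1 was then closest to Tmem40 (0.784).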

How the data were processed

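The authors deposited read counts per gene, made with FastQC, cutadapt, STAR, SAMtools, Picard and featureCounts on mm39, and a vst table of log2-like values made by the authors with DESeq2. Annotation coordinates are those of GENCODE on GRCm39, and 10501 of the 10508 vst genes were matched to the counts by symbol. The deposited vst values were compared by limma 3.58.1 in R 4.3.3, 2 groups per fit, two-sided. Counts were compared by edgeR 4.0.16 (TMM, quasi-likelihood test, at least 10 counts in at least 11 mice, 15211 genes) and DESeq2 1.42.0, and total-count scaling used log2(CPM + 1). FDR values are Benjamini-Hochberg adjusted over all genes tested, and p-values called unadjusted are not. Other computations used Python 3.11.15, numpy 2.4.6, pandas 2.3.3 and scipy 1.17.1. The tests were tested on simulated data. Alternatives were no count filter, all 6 groups in the fit, the mouse number as a replicate block and each mouse left out in turn. Mice were left out only in the comparisons of HOCl with control, D11 with HOCl and E07 with HOCl mice. Named genes were the 8 members, the 3 nearest genes of each by r, the most abundant gene of each list, genes among the largest increases and decreases of the regulators and targets in HOCl versus control mice, and some called list genes. Members and lists were chosen with earlier results of these data known.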

Additional observations from a re-analysis of the deposited data

How the results depend on the processing

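Apart from leaving out mice, 480 values of single members under 6 alternatives comprised 409 that kept direction and side of the threshold, 25 that lost a call, 25 that gained it and 21 that changed sign. Total-count scaling gave 15 of the sign changes. In HOCl versus control mice these were Gata1 (-0.18), Tal1 (-0.036) and Gfi1b (-0.19), in E07 versus HOCl mice Gata1 (0.017) and Gfi1b (0.16), in D11 and D06 versus HOCl mice Tal1 (0.090 and -0.012), and in E07 versus D11 mice Zfpm1 (0.080). Versus control mice they were Nfe2 (-0.041) and Zfpm1 (-0.20) in D11, Gata1 (-0.017), Tal1 (-0.048) and Zfpm1 (-0.12) in D06, and Zfpm1 (-0.21) and Ldb1 (-0.31) in BPR21 mice. Values near 0 changed sign elsewhere: Tal1 in D11 versus HOCl mice by edgeR (0.037, or 0.035 without a filter) and DESeq2 (0.033), and from -0.097 to 0.045 with mice left out, and Lmo2 in D06 versus HOCl mice by edgeR (0.0017) and DESeq2 (0.015). The causes were not tested.

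Total-count scaling called 3 members in HOCl versus control, E07 versus HOCl and D06 versus control mice and 1 in E07 versus D11 mice. With all 6 groups in the fit, 3 were called in HOCl versus control, 5 in E07 versus HOCl, 5 in D06 versus control, 4 in BPR21 versus control and 0 in E07 versus D11 mice. In BPR21 versus control mice edgeR, with or without a filter, and DESeq2 called 3, and DESeq2 called 1 in D11 versus control mice. Leaving out mice gave 4 to 5 members in HOCl versus control mice (380 to 676 genes), 5 to 6 in E07 versus HOCl mice (747 to 917 genes) and 0 in D11 versus HOCl mice (2 to 29 genes). Blocking on the replicate number, 1 member was called in HOCl versus control mice (85 genes in place of 521) and 4 in BPR21 versus control mice (534 in place of 53), and Lmo2 was 0.026 in D06 versus HOCl mice. Whether the numbers mark a pairing of the mice was not established. At most 7 of 11 same-numbered pairs had an r over 0.1. Yet in every comparison the mean r of same-numbered mice was above that of other pairs. It was 0.146 beside -0.0097 in E07 versus control mice and 0.0100 beside 0.0005 in D06 versus HOCl mice.

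Relative to limma on the vst values, the number of genes called changed by more than 1.5 times as follows, with the setting, the replicate block among them, in brackets. The tools on counts also differ in the genes tested, and the total count in the transformation. HOCl versus control mice went from 521 genes to 5459 (total count), 85 (block). E07 versus HOCl mice went from 829 genes to 1421 (DESeq2), 6882 (total count). D11 versus HOCl mice went from 6 genes to 28 (edgeR), 148 (DESeq2), 0 (total count), 1 (block). D06 versus HOCl mice went from 14 genes to 178 (DESeq2), 0 (total count), 82 (6 groups), 0 (block). BPR21 versus HOCl mice went from 67 genes to 255 (DESeq2), 0 (total count), 148 (6 groups), 21 (block). D11 versus control mice went from 8 genes to 157 (DESeq2), 18 (total count), 115 (block). E07 versus control mice went from 1 gene to 16 (DESeq2), 0 (6 groups), 13 (block). D06 versus control mice went from 828 genes to 7039 (total count). BPR21 versus control mice went from 53 genes to 225 (edgeR), 570 (DESeq2), 677 (total count), 406 (6 groups), 534 (block). E07 versus D11 mice went from 480 genes to 764 (edgeR), 960 (DESeq2), 4664 (total count), 0 (6 groups). Without the filter, edgeR went from 564 genes to 812 in HOCl versus control, from 1236 to 2388 in E07 versus HOCl, from 28 to 23 in D11 versus HOCl, from 13 to 37 in D06 versus HOCl, from 71 to 50 in BPR21 versus HOCl, from 8 to 17 in D11, from 1 to 24 in E07, from 1110 to 2612 in D06 and from 225 to 280 in BPR21 versus control, and from 764 to 1464 in E07 versus D11 mice.

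Counts of 18 to 171 per mouse limit the precision of Klf1. Blood cell counts are not among the deposited data, the groups differ in cage, and the annotation release used for counting is not stated. Sizes of change on the vst scale understate those of scarce genes.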
